A study of Zea mays with 6 samples.

Results

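The aquaporin genes SIP2-1 (GRMZM2G175038), TIP2-3 (GRMZM2G125023) and TIP1-2 (GRMZM2G168439) are 3 of 39625 maize gene models measured by RNA sequencing in mature pollen. They were chosen by identifier, selected on transcript levels in heat and control pollen that were already known, so their difference between the groups is given as a description and not tested. The heat group was mature pollen of the inbred line B73 from plants that spent 48 h at a day temperature of 35 °C and a night temperature of 25 °C while their pollen was at the tetrad stage, when the microspores of a meiosis are still joined. The control group was mature pollen of B73 plants kept at 25 °C in the day and 21 °C at night. Humidity was 60% and light 25000 lux for both groups, and all plants returned to the greenhouse until the pollen had matured. Each group had 3 libraries, described in the labels as biological replicates, without saying whether each came from a separate plant. The libraries are of whole pollen, so that fewer cells of a type and less RNA per cell cannot be told apart.

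Aquaporins are membrane channels that let water, and in some members glycerol, urea, ammonia, silicic acid or hydrogen peroxide, cross a lipid bilayer. The plant subfamilies described here are plasma membrane intrinsic proteins (PIPs), tonoplast intrinsic proteins (TIPs) of the vacuole membrane, nodulin 26-like intrinsic proteins (NIPs) and small basic intrinsic proteins (SIPs), which in Arabidopsis thaliana reside in the endoplasmic reticulum. Pollen loses water as it matures and takes it up again on the stigma, and in A. thaliana the SIP2-type gene has a role in pollen tube growth. TIPs of the first group are known mainly as water channels, and those of the second group also carry ammonia.

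Depth, tissue and lanes were checked first. Whole reads, rebuilt from the deposited values because reads come in whole numbers, came to between 19086616 and 19745003 per heat library and between 20978451 and 28640667 per control library. All 7 matched markers of the pollen vegetative cell exceeded 1 TPM (the deposited unit, in which reads are divided by gene length and scaled to the same total in each library) in every library, with a summed level of 40805 to 43879 TPM in heat and 40715 to 42878 TPM in control. Of the vegetative cell markers, prf1 and prf3 had every heat library above every control library. Their means were 2851 and 2729 TPM in heat and 2262 and 2178 TPM in control. For pme1 every heat library lay below every control library, at means of 7541 TPM in heat and 8941 TPM in control. The groups overlapped for mgs1, prf2, PG14 and PG. Nothing is read from the separation of single markers. In the fit across all genes, 23.2% of 8615 tested genes had every heat library above every control library. The share with every heat library below is not given here. The sperm gene hap2 had 6.88 to 7.99 TPM in heat and 5.78 to 7.47 TPM in control. Of 14 markers of green tissue none reached 1 TPM in every library and cab48, lhcb4 and the model named Pep1 were at 0 throughout, and the list summed to 0.545 to 1.04 TPM in heat and 0.526 to 0.876 TPM in control. The 4 anther wall and tapetum markers, none of them at 0 throughout, summed to 4.02 to 4.49 TPM in heat and 2.66 to 3.38 TPM in control, mostly from the regulator gene ms32 (GRMZM2G163233, matched to 2 RefSeq genes). ms32 had 3.04 to 3.23 TPM in heat and 1.36 to 1.75 TPM in control. The other markers of that list did not share its direction: ms26 had 0.641 to 1.16 TPM in heat and 1.20 to 1.31 TPM in control, and ms8 and ms23 had lower means in heat, at under 10 reads in every library. The part of ms32 or of the list in the aquaporin differences was not tested. Heat replicates 1 and 2 were run on lanes 1 and 2 of the flow cell, and heat replicate 3 shared lanes 3, 4 and 5 with the controls.

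SIP2-1 differed most of the 3 between the groups. It had 22.2, 17.5 and 21.6 TPM in heat replicates 1, 2 and 3, and 12.4, 10.3 and 12.3 TPM in control replicates 1, 2 and 3. Every heat library was above every control library, and replicate 2 was the lowest in both groups. The means were 20.4 ± 2.56 TPM in heat and 11.7 ± 1.19 TPM in control (SD, n = 3 each), a log2 fold change of 0.75 (SE 0.11, 95% interval 0.50 to 1.00) on the scale of log2(TPM + 1). SIP2-1 was counted from 335, 264 and 324 reads in heat and from 275, 189 and 198 reads in control, the fewest of the 3 genes. Counting error alone would give a coefficient of variation of 5.70% in heat and 6.73% in control, where the libraries showed 12.6% and 10.2%.

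TIP2-3, a tonoplast aquaporin of the second TIP group that is also listed as por2, was intermediate. Its level was 39.8, 32.3 and 38.4 TPM in heat replicates 1, 2 and 3, and 23.7, 24.5 and 27.5 TPM in control replicates 1, 2 and 3. The groups again did not overlap, and heat replicate 2 was again the lowest heat library. The means were 36.8 ± 4.0 TPM in heat and 25.2 ± 1.97 TPM in control (SD, n = 3 each), a log2 fold change of 0.53 (SE 0.10, 95% interval 0.31 to 0.74). Between 979 and 1207 reads stood behind each heat value and between 884 and 1054 behind each control value.

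TIP1-2, a tonoplast aquaporin of the first TIP group, had the highest level per gene length among the 27 matched aquaporin models, though TIP2-1 had more reads, and showed the smallest relative difference of the 3. It had 141.6, 172.3 and 160.3 TPM in heat replicates 1, 2 and 3, against 128.5, 117.8 and 124.9 TPM in control replicates 1, 2 and 3. The lowest heat library lay above the highest control library. Here heat replicate 2 was the highest heat library, the reverse of its place for SIP2-1 and TIP2-3. The means were 158.1 ± 15.5 TPM in heat and 123.7 ± 5.47 TPM in control (SD, n = 3 each), a log2 fold change of 0.35 (SE 0.08, 95% interval 0.17 to 0.52). The spread of the heat libraries, a coefficient of variation of 9.78%, was wider than the 4.42% of the controls, while counting error was alike at 3.05% and 3.08%.

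**Figure D1:**
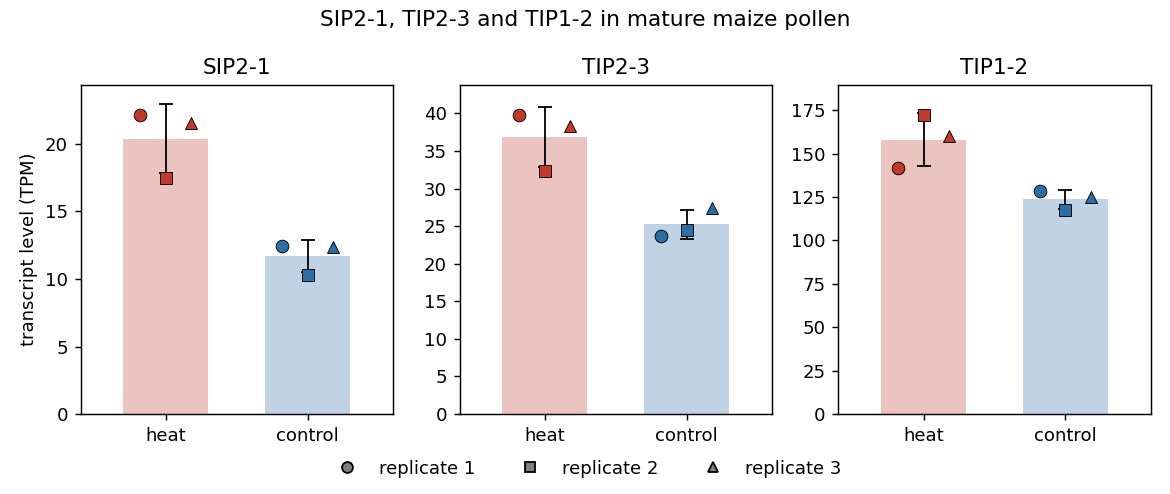
Transcript level in TPM of SIP2-1, TIP2-3 and TIP1-2 in heat and control libraries, with the replicates as symbols, the mean as a bar and the SD as an error bar (n = 3 each). In each panel the heat symbols lie above the control symbols, and heat replicate 2 is the lowest heat library for SIP2-1 (17.5 TPM) and TIP2-3 (32.3 TPM) but the highest for TIP1-2 (172.3 TPM).

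The fit across all genes (limma on log2(TPM + 1), Benjamini-Hochberg adjustment) gave the background. Of 8615 genes tested, 20.2% passed an adjusted p of 0.05 in either direction, 1123 higher and 616 lower in heat. The split depended on scaling, with 900 higher and 795 lower when the 100 most abundant genes were left out and 871 higher and 953 lower after quantile normalization. The number lower in heat dropped to 374 without control replicate 1 and 391 without control replicate 3, where 844 and 869 were higher. The 3 members were past that threshold and higher in heat, as were 13.0% of the tested genes. The same share was 24.9% among genes averaging 10 to 100 TPM, where SIP2-1 and TIP2-3 lie, and 23.6% among genes averaging 100 TPM or more, where TIP1-2 lies. All 3 had every heat library above every control library, as had 23.2% of the tested genes. The members were chosen on this contrast, so nothing is read from their counts. As a description of size, 2.77% of tested genes had a larger log2 fold change than SIP2-1, 6.01% a larger one than TIP2-3 and 13.0% a larger one than TIP1-2. These shares may be too small, because the log2(TPM + 1) scale understates the change of low genes. Of the tested genes, 5578 averaged from 1 to below 10 TPM, under the level of each member.

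With the lane set as a term in the fit, the heat difference comes from heat replicate 3 alone, the heat library on the lanes of the controls. The log2 fold change was then 0.84 (SE 0.17) for SIP2-1, 0.59 (SE 0.15) for TIP2-3 and 0.37 (SE 0.12) for TIP1-2, at least as large as without the lane. TIP1-2 was then no longer past the threshold, nor was it after quantile normalization (log2 fold change 0.18, SE 0.07). Set singly against the control mean on the log2(TPM + 1) scale, heat replicates 1, 2 and 3 were higher by 0.87, 0.54 and 0.84 for SIP2-1. For TIP2-3 they were higher by 0.64, 0.35 and 0.59, and for TIP1-2 by 0.19, 0.48 and 0.37.

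**Figure D2:**
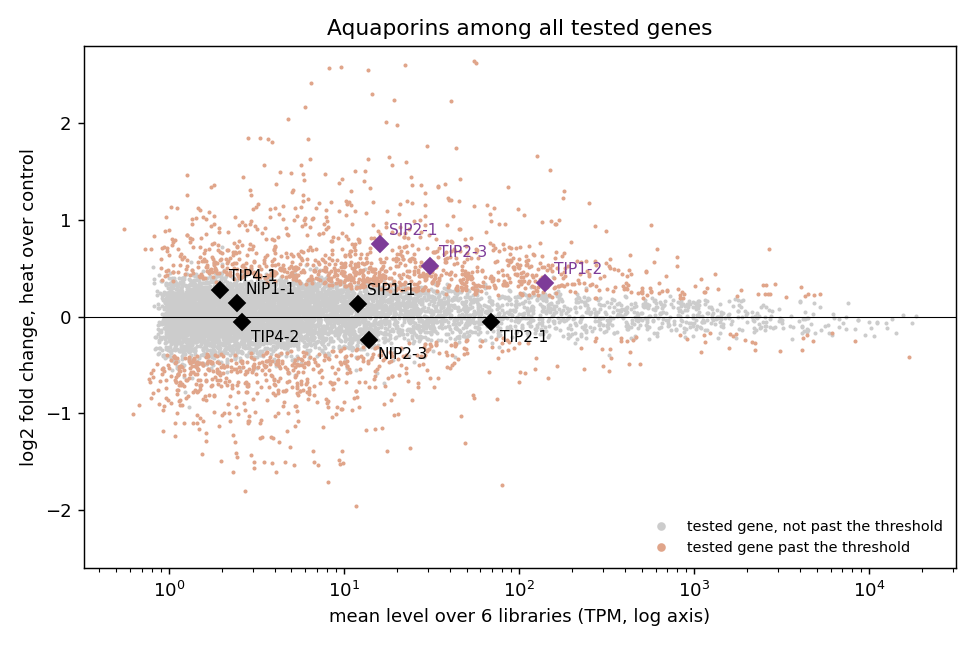
Log2 fold change of heat over control against the mean level over 6 libraries (TPM, log axis) for the 8615 tested genes, with the 9 tested aquaporins as diamonds SIP2-1, TIP2-3 and TIP1-2 in purple, and genes past an adjusted p of 0.05 in orange. The 3 purple diamonds lie at 0.75, 0.53 and 0.35, and the other aquaporins between -0.24 and 0.28.

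The rest of the family was then examined to place the 3 genes. A list by RefSeq name held 27 aquaporin gene models, of which 22 were above 0 in any library and 9 reached 1 TPM in at least 3 libraries and were tested. PIP1-2, TIP1-1, TIP5-1 and a further TIP4-2 had no matched gene model, so the sums and shares given here lack them. TIPs made up 84.6 ± 1.08% of the summed aquaporin level in heat and 84.4 ± 0.93% in control, and SIPs 10.5 ± 0.73% in heat and 8.83 ± 0.78% in control (SD, n = 3 each). NIPs held 4.84 ± 0.34% in heat and 6.57 ± 0.34% in control. PIPs, the aquaporins of the plasma membrane, were near the limit of detection: all 9 matched models together had 4 to 7 reads per heat library and 7 to 16 per control library, and none exceeded 0.181 TPM in a library. The summed level of all 27 models was 300.7, 320.6 and 326.1 TPM in heat replicates 1, 2 and 3, and 266.8, 253.1 and 273.2 TPM in control replicates 1, 2 and 3. SIP2-1, TIP2-3 and TIP1-2 together made up 67.5 to 69.2% of that sum in heat and 60.3 to 61.7% in control. The members were chosen on this contrast and are part of the sum and of the TIP and SIP shares. Nothing is therefore read from the rise of their share, of the SIP share or of the sum. The TPM levels and shares also rest on the lengths of the gene models, and the TIP1-2 model had only 563 bases.

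**Figure D3:**
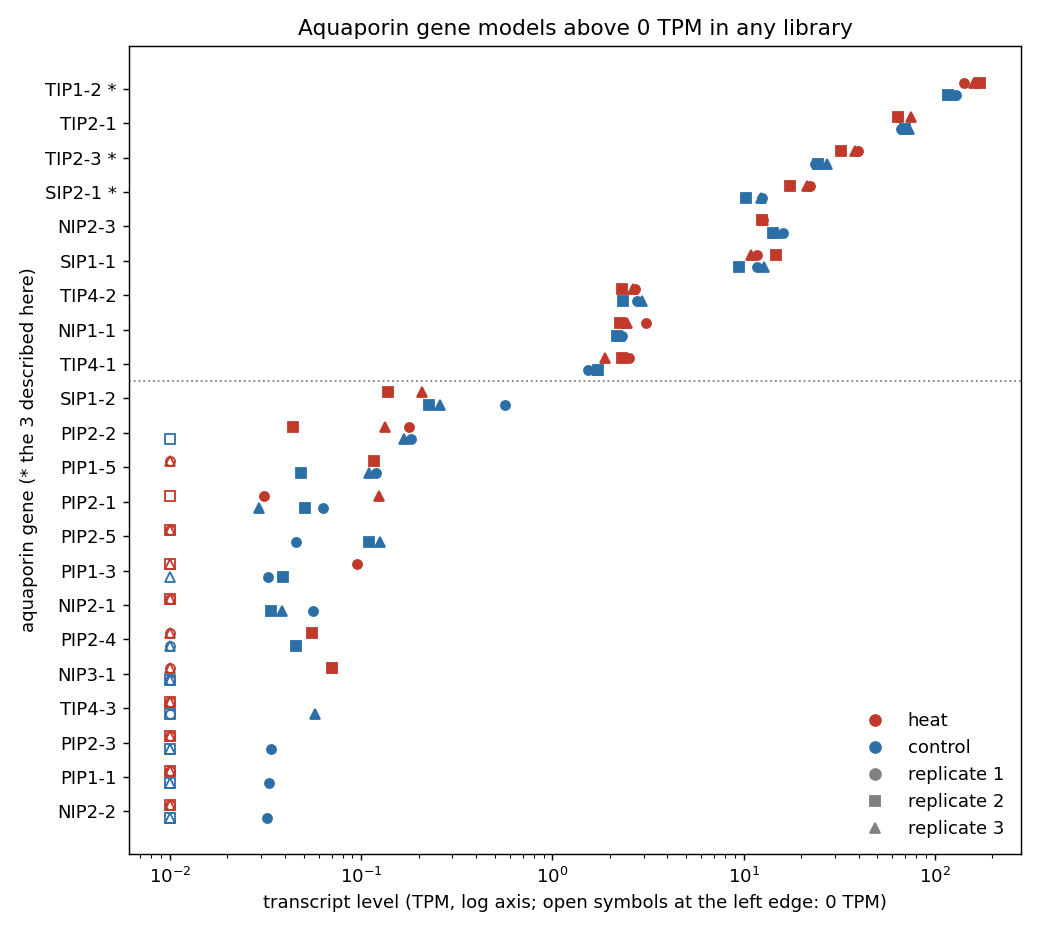
Transcript level (TPM, log axis) of the 22 aquaporin gene models above 0 in any library, heat above control for each gene and 1 symbol per library, with open symbols at the left edge for 0 TPM. The dotted line divides the 9 tested genes, led by TIP1-2 at 158.1 TPM in heat and 123.7 TPM in control, from the models that did not pass the filter, none of which exceeded 0.564 TPM in a library.

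By mean level per gene length, the order in heat pollen was TIP1-2, TIP2-1, TIP2-3, SIP2-1, NIP2-3, SIP1-1, NIP1-1, TIP4-2 and TIP4-1. The ranges of NIP2-3 and SIP1-1 overlapped there, as did those of the neighbouring pairs among the last 3 genes. In control pollen NIP2-3, at 15.1 ± 0.95 TPM, came before SIP2-1, whose range overlapped that of SIP1-1 at 11.4 ± 1.68 TPM (SD, n = 3 each). In heat pollen the lowest SIP2-1 library lay above the highest library of SIP1-1 and of NIP2-3. The order rests on the lengths of the gene models, which were rebuilt with the reads. TIP1-2 had a model of 563 bases, the shortest of the 9, and 4.49% of all tested models were shorter. The TIP2-3 model was the longest of the 9 at 2505 bases, and 21.5% of tested models were longer. In reads the order changed: over the 6 libraries TIP2-1 had 7173, TIP1-2 had 6382, TIP2-3 had 6179 and SIP2-1 had 1585. Whether these models cover their transcripts fully was not tested. A length that is wrong shifts a gene's level in all libraries alike and leaves the fold change between groups nearly as it is. A divisor shared by a gene's length and all its reads would also have gone unseen in the rebuilding.

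Of the 6 tested aquaporins outside the 3, limma placed 0 past the adjusted threshold in either direction, as did limma-voom on the rebuilt reads. Each tool gave 2 with an unadjusted p under 0.05. Of all 8615 tested genes, 2774 had such a p in limma and 2887 in limma-voom, so nothing is read from these 2. With 20.2% of all tested genes past the adjusted threshold, a count of 0 among so few genes does not set the 6 apart. Their median log2 fold change was 0.04, equal to the 0.04 of all tested genes. TIP2-1 (GRMZM2G027098), by name the other tested gene of the second TIP group, had 67.5 ± 6.24 TPM in heat and 69.9 ± 3.30 TPM in control (SD, n = 3 each). Its log2 fold change was -0.05 (SE 0.08, 95% interval -0.23 to 0.13, limma adjusted p = 0.725). SIP1-1 (GRMZM2G113470), of the same subfamily as SIP2-1, had 12.5 ± 2.04 TPM in heat and 11.4 ± 1.68 TPM in control (log2 fold change 0.13, SE 0.13, 95% interval -0.16 to 0.42, limma adjusted p = 0.550). A p that misses the threshold does not show that these levels were alike, and the intervals give the sizes the data allow.

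NIP2-3 (GRMZM2G081239), also named Lsi6 after a silicic acid channel of grasses, had the lowest log2 fold change of the 9. It had 12.6, 12.6 and 12.7 TPM in heat replicates 1, 2 and 3, and 16.1, 14.3 and 14.8 TPM in control replicates 1, 2 and 3, so that every heat library lay below every control library. Its log2 fold change was -0.24 (SE 0.09) and missed the threshold (limma adjusted p = 0.0958). It passed, as lower in heat, after median-ratio scaling (0.0388), without the 100 most abundant genes (0.0325) and after quantile normalization (0.0139), and the alternatives gave adjusted p-values of 0.0139 to 0.387. TIP4-1 (GRMZM2G103945) had 2.24 ± 0.32 TPM in heat and 1.66 ± 0.11 TPM in control. Every heat library lay above every control library (log2 fold change 0.28, SE 0.13, limma adjusted p = 0.150). The upward separation was shared by 23.2% of all tested genes, and the share for the downward one is not given here. Nothing is therefore read from the separation of NIP2-3 or TIP4-1. TIP4-2 (GRMZM2G108273) and NIP1-1 (GRMZM2G041980) had 2.55 and 2.60 TPM in heat and 2.70 and 2.26 TPM in control, and neither passed (limma adjusted p = 0.803 and 0.501).

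**Figure D4:**
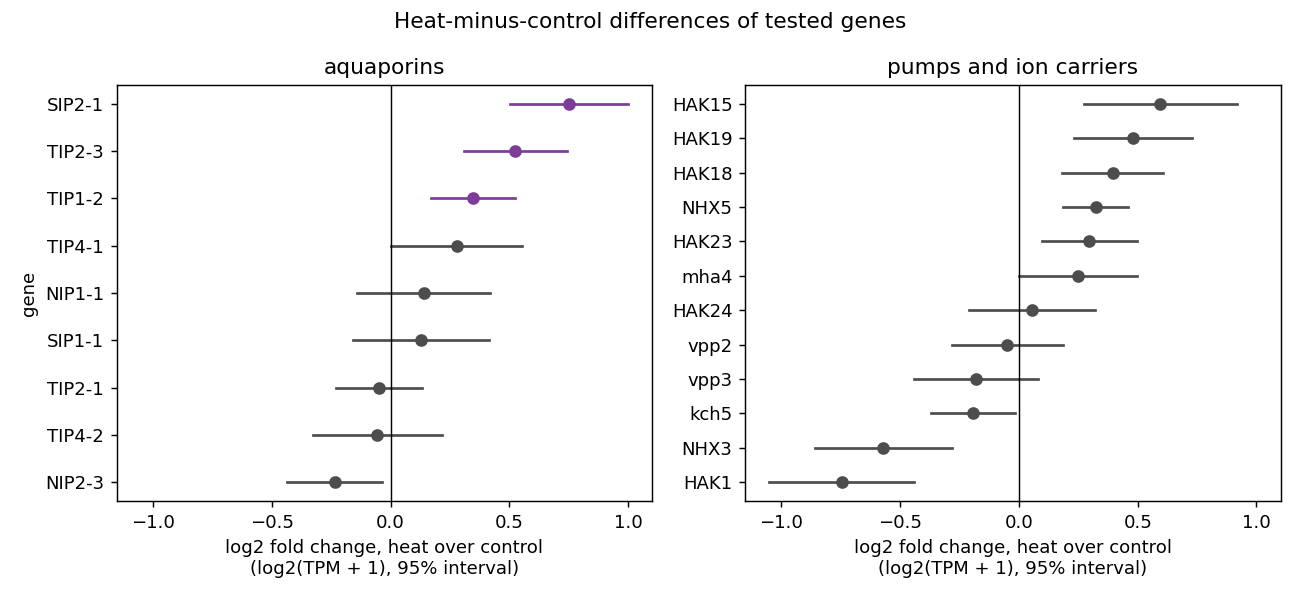
Log2 fold change of heat over control on the log2(TPM + 1) scale with its 95% interval for the 9 tested aquaporins, SIP2-1, TIP2-3 and TIP1-2 in purple, and for the 12 tested pumps and ion carriers. SIP2-1 lies at 0.75 and NIP2-3 at -0.24 among the aquaporins, and HAK15 at 0.60 and HAK1 at -0.75 among the carriers.

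Ratios between genes of the same library do not depend on how that library was scaled. The TPM ratio of SIP2-1 to SIP1-1 was 1.88, 1.18 and 1.97 in heat replicates 1, 2 and 3, and 1.06, 1.08 and 0.963 in control replicates 1, 2 and 3. The ratio of TIP2-3 to TIP2-1 was 0.623, 0.505 and 0.514 in heat and 0.357, 0.35 and 0.375 in control, in the same order. That of TIP1-2 to TIP2-1 was 2.21, 2.69 and 2.14 in heat and 1.93, 1.68 and 1.71 in control. In all 3 comparisons the heat libraries lay above the control libraries, with heat replicate 2 the lowest of the heat libraries for SIP2-1 to SIP1-1 and the highest for TIP1-2 to TIP2-1. Among the 3 genes themselves, the ratio of SIP2-1 to TIP2-3 was 0.557, 0.541 and 0.562 in heat and 0.523, 0.422 and 0.449 in control, a narrow range in heat. The ratio of TIP2-3 to TIP1-2 overlapped between the groups, at 0.187 to 0.281 in heat and 0.185 to 0.220 in control. The members were chosen on this contrast, and TIP2-1 was the denominator of more than 1 ratio. Nothing is therefore read from the number of ratios without overlap, and the differences between members and relatives were not tested.

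**Figure D5:**
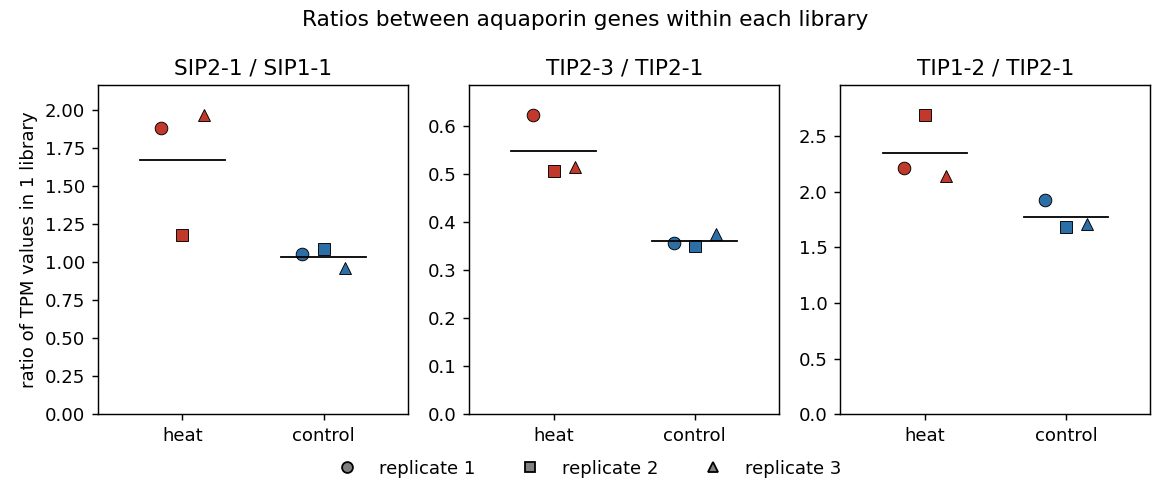
Ratio of TPM values within each library for SIP2-1 over SIP1-1, TIP2-3 over TIP2-1 and TIP1-2 over TIP2-1, heat left of control, replicates as symbols and means as lines. The mean ratios were 1.68, 0.547 and 2.35 in heat and 1.03, 0.361 and 1.77 in control, and the groups do not overlap in any panel.

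Water flow across the tonoplast and plasma membrane follows solutes, so genes of proton pumps and ion carriers were set beside the aquaporins. A list by name held 37 gene models, most of them HAK potassium transporter genes and none named as a subunit of the vacuolar proton-pumping ATPase. Of the 37, 12 were tested: 5 rose, 2 fell and 5 did not pass. Of all tested genes 20.2% passed in either direction and 13.0% as higher in heat. The median log2 fold change was 0.15 for the list and 0.04 over all tested genes. NHX5 (GRMZM2G027851), of the cation/proton antiporters, was the most abundant and rose to 303.9 ± 7.11 TPM in heat, against 242.8 ± 10.8 TPM in control (SD, n = 3 each; log2 fold change 0.32, SE 0.06, limma adjusted p = 0.0032). The potassium transporter genes HAK15 (GRMZM2G121063; log2 fold change 0.60), HAK19 (GRMZM2G021725; 0.48), HAK18 (GRMZM2G086389; 0.39) and HAK23 (GRMZM2G036916; 0.30) rose as well. HAK1 (GRMZM2G093826) fell to 0.873 ± 0.272 TPM in heat, against 2.12 ± 0.17 TPM in control (log2 fold change -0.75, SE 0.14, limma adjusted p = 0.0024), and NHX3 (GRMZM2G063492) fell by 0.57 on the log2 scale. The potassium channel gene kch5 (GRMZM2G171279) was the next most abundant after NHX5, at 104.9 ± 8.38 TPM in heat and 120.1 ± 8.22 TPM in control (limma adjusted p = 0.117). The vacuolar proton-pumping pyrophosphatase genes vpp2 and vpp3, which act at the tonoplast like the TIPs, did not pass (limma adjusted p = 0.798 and 0.328). Nor did the proton pump gene mha4 (GRMZM2G006894), at 8.60 ± 0.89 TPM in heat and 7.07 ± 0.63 TPM in control. Its log2 fold change was 0.25 (95% interval 0.002 to 0.495, limma adjusted p = 0.152). With the lane in the fit 0 of the 12 passed, against 654 of all tested genes. HAK23 lost its call in most single-library removals (without heat replicate 1 or 2, or control replicate 1, 2 or 3), and HAK15 without heat replicate 2. HAK23 also lost it without the 100 most abundant genes and after quantile normalization, which ended the call of HAK18 as well, while kch5 passed as lower in heat under both, after median-ratio scaling and without heat replicate 1.

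The genes most like each member over the 6 libraries were sought among the other 792 named genes tested, by Pearson's r of log2(TPM + 1). The groups differ for all 3 members, so a high r mostly says that a gene differed in the same way, and the values are descriptions. SIP2-1 was most like the MYB-related gene MYBR22 (GRMZM2G468479, r = 0.975), the pentatricopeptide repeat gene PPR-814b (GRMZM2G416498, 0.967) and PRPK (GRMZM2G044552, 0.967), and least like PYL2 (GRMZM2G134731, -0.987), of the abscisic acid receptor family. MYBR22 had 2.73, 2.32 and 2.92 TPM in heat replicates 1, 2 and 3, and 0.670, 0.638 and 0.885 TPM in control replicates 1, 2 and 3. TIP2-3 was most like mwp1 (GRMZM2G082264, 0.980), the cytochrome P450 gene CYP92C5 (GRMZM2G102079, 0.975) and again MYBR22 (0.970), and least like pnFL-2 (GRMZM2G005954, -0.986). CYP92C5 had 29.2, 26.5 and 33.0 TPM in heat and 14.8, 15.6 and 18.9 TPM in control, in the same order.

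TIP1-2 had a set of its own: the trihelix gene THX39 (GRMZM2G001272, matched to 2 RefSeq genes, r = 0.994), the potassium transporter gene HAK15 (0.993) and bx9 (GRMZM2G161335, 0.992), a glucosyltransferase gene of benzoxazinoid metabolism. HAK15 had 2.17, 3.29 and 2.79 TPM in heat replicates 1, 2 and 3, and 1.75, 1.17 and 1.51 TPM in control replicates 1, 2 and 3, with heat replicate 2 the highest as for TIP1-2. Bk2L4 (GRMZM2G071970), a relative of the cell wall gene brittle stalk2, was least like it (-0.990). Among the members, r was 0.967 between TIP2-3 and SIP2-1, 0.783 between TIP1-2 and SIP2-1 and 0.703 between TIP1-2 and TIP2-3 (Spearman's rho 0.829, 0.771 and 0.600).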

How the data were processed

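The deposited table gives 1 TPM value per gene model and library, used as the authors made it. Trimmomatic 0.35, FastQC, STAR 2.5.2a, featureCounts and DESeq2 and the build B73 RefGen_v3 are named, per the submitters' processing notes. Their roles, the strand setting and the handling of multi-mapping reads are not given in the sources used here, so values of aquaporins with near-identical copies are uncertain to that extent. Names came from a RefSeq table of another assembly (Zm-B73-REFERENCE-NAM-5.0), used for names alone. It matched 19060 gene models, among them all 3 members. PIP1-2, TIP1-1, TIP5-1 and a further model named TIP4-2 had no matched gene model and were not analysed here. Sequences of the members were not used here. Lanes were read from the sample sheets.

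Whole reads and gene lengths were rebuilt from the ratios of TPM values between libraries, within 0.001 reads, for all 24654 models above 0. For 445 models the reads shared a divisor that had to be restored. Genes at 1 TPM or more in 3 or more libraries were compared with limma 3.58.1 in R 4.3.3 on log2(TPM + 1), a scale that understates the change of low genes (two-sided, with a variance trend, adjusted after Benjamini-Hochberg, threshold 0.05). The fit and the rebuilding were run on simulated data. The simulated reads for the fit carried no lane effect, so those runs are a check of the code and not of these libraries. P-values measure the spread between these libraries. No pair of libraries of a group agreed within counting noise. The members and lists were chosen with earlier results of these data known. Named genes were the members, listed aquaporins above 0, called carriers and the 2 most abundant ones, and the 3 named genes most like and 1 least like each member. The pump genes vpp2, vpp3 and mha4 were added after their values were seen. Alternatives were other pseudocounts, filters and scalings, the lane, a replicate block, single-library removal and limma-voom.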

Additional observations from a re-analysis of the deposited data

How the results depend on the processing

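Each of the 3 members kept its direction in all 16 alternatives. The log2 fold change of SIP2-1 ran from 0.60 (pseudocount of 5) to 0.85 (without heat replicate 2), within 1 replicate SD of the reported value in all 16. For TIP2-3 and TIP1-2 this held in 15, and quantile normalization moved the value to 0.36 and 0.18. The cause was not tested. The groups did not overlap for the members, so removing a library or changing the pseudocount or the filter could not turn their direction. Neither could the lane or the replicate block, and only the other scalings and limma-voom could have. The count of all tested genes past the threshold fell to 654 with the lane as a covariate, a fit that leaves a single heat library on the lanes of the controls. Among aquaporins outside the members, 1 gene (NIP2-3, lower in heat) passed after median-ratio scaling, without the 100 most abundant genes and after quantile normalization. Of the pumps and ion carriers, 3 passed with no filter on low values, 4 with a filter of 5 TPM, which left fewer of them to test, and 0 with the lane. Leaving out single libraries gave 1218 (without control replicate 1) to 1820 genes (without heat replicate 1). With the replicate number as a replicate block, 1785 genes passed against 1739. Deviations of same-numbered libraries correlated at 0.119, 0.130 and -0.0505, so the numbers were not taken as pairs. The widening of the family by protein similarity was not run. Read numbers limit the low aquaporins: a count of 0 allows up to 3 reads in a library.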

Other observations

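Below the filter, SIP1-2 (GRMZM2G060922), the remaining SIP, had 2, 2 and 3 reads in heat replicates 1, 2 and 3, and 12, 4 and 4 reads in control replicates 1, 2 and 3. PIP2-5 (GRMZM2G178693) had 0 reads in all heat libraries and 1, 2 and 2 reads in control replicates 1, 2 and 3. NIP2-1 (GRMZM2G028325), also named Lsi1, likewise had 0 reads in all heat libraries and 2, 1 and 1 reads in the controls. These counts are at or near the limit of detection and were not tested. TIP3-1 and TIP3-2, of the TIP group known from seed storage vacuoles, had no read in any library, nor had TIP2-2, TIP4-4 or PIP2-6.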
